A study of Equus caballus with 31 samples.

Results

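The genes described here are a group that cells use to copy their DNA and to divide it in mitosis, measured in joint (synovial) fluid cells and peripheral blood mononuclear cells (PBMC) from horses that were healthy or had osteoarthritis (OA). The members were 45 gene symbols of known function, chosen with earlier results of these data known. Every row of both tables that carried such a symbol was taken. Of these 45 genes, 42 were listed in both tables, out of 17538 genes in the fluid table and 17410 in the blood table. MKI67, CCNA2 and CHEK1 were not found under those symbols and were not analysed here. All 42 passed the filter on low values, a mean of at least 10 over the libraries of a table, in both tissues.

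RNA was sequenced from fluid cells of 5 horses with OA and 11 healthy horses, and from PBMC of 6 horses with OA and 9 healthy horses, all labelled wild type. Fluid had been digested with hyaluronidase, which thins it, and spun to a pellet of unsorted cells. PBMC are the lymphocytes and monocytes of blood, labelled as mixed mononuclear cells, so both kinds of sample are mixtures. Horses keep the names of the labels, OA_ or ORC_ (healthy) and a number, and 13 of them, 5 with OA and 8 healthy, gave both samples. The labels give no age, sex or batch. Fluid libraries held 25.9 to 36.3 M reads, and blood libraries 31.7 to 34.8 M in OA against 23.9 to 32.2 M in healthy horses. Levels are normalized read counts, that is reads divided by a scaling factor of the library. Changes are differences in log2(value + 1), OA against healthy, and "called" means an adjusted p below 0.05 in limma's test over all genes of the table with Benjamini-Hochberg adjustment.

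Before a cell divides, the MCM proteins are loaded onto replication origins as a ring-shaped helicase, CDC45 and the GINS complex switch this helicase on, and enzymes such as thymidylate synthase and ribonucleotide reductase supply the nucleotides. Cyclin B with CDK1 then drives entry into mitosis, kinesin motors and Aurora kinases build the spindle, and the anaphase-promoting complex, with CDC20 and UBE2C, marks proteins for destruction so that chromosomes separate. Most resting lymphocytes and monocytes of blood hold little of these transcripts, and activated lymphocytes and antibody-forming cells raise them when they divide.

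In blood, 17 of the 42 genes were lower in OA and 0 were higher, with at least 1 called in each of the 5 roles described below. Over all 13072 genes tested in blood, 2.2% were called lower and 3.2% higher, 5.4% in all. The members were chosen with earlier results of these data known, so an excess over these shares is no separate evidence. The largest falls among the called members were those of UBE2C (-1.52), CDC20 (-1.33), AURKB (-1.28), TPX2 (-1.22), RRM2 (-1.22) and TK1 (-1.21), and the median change of the 42 was -0.95, beside 0.02 for all genes tested. The change was below 0 for 42 of 42 members, or 41 of 42 when libraries were scaled to equal totals, against 48% of all genes. For 38 members, each of the 6 OA horses lay below the median of the healthy horses. The groups overlapped for all 42, while over all genes 0.436% had every OA horse below every healthy horse and 0.612% the reverse. For 6 members, 5 of the 6 OA horses lay below every healthy horse. Neither this count nor that of the 38 was made over all genes, and the members varied together, as given below. Fewer dividing cells in a sample and less of these RNAs per cell cannot be told apart in such mixtures.

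**Figure D1:**
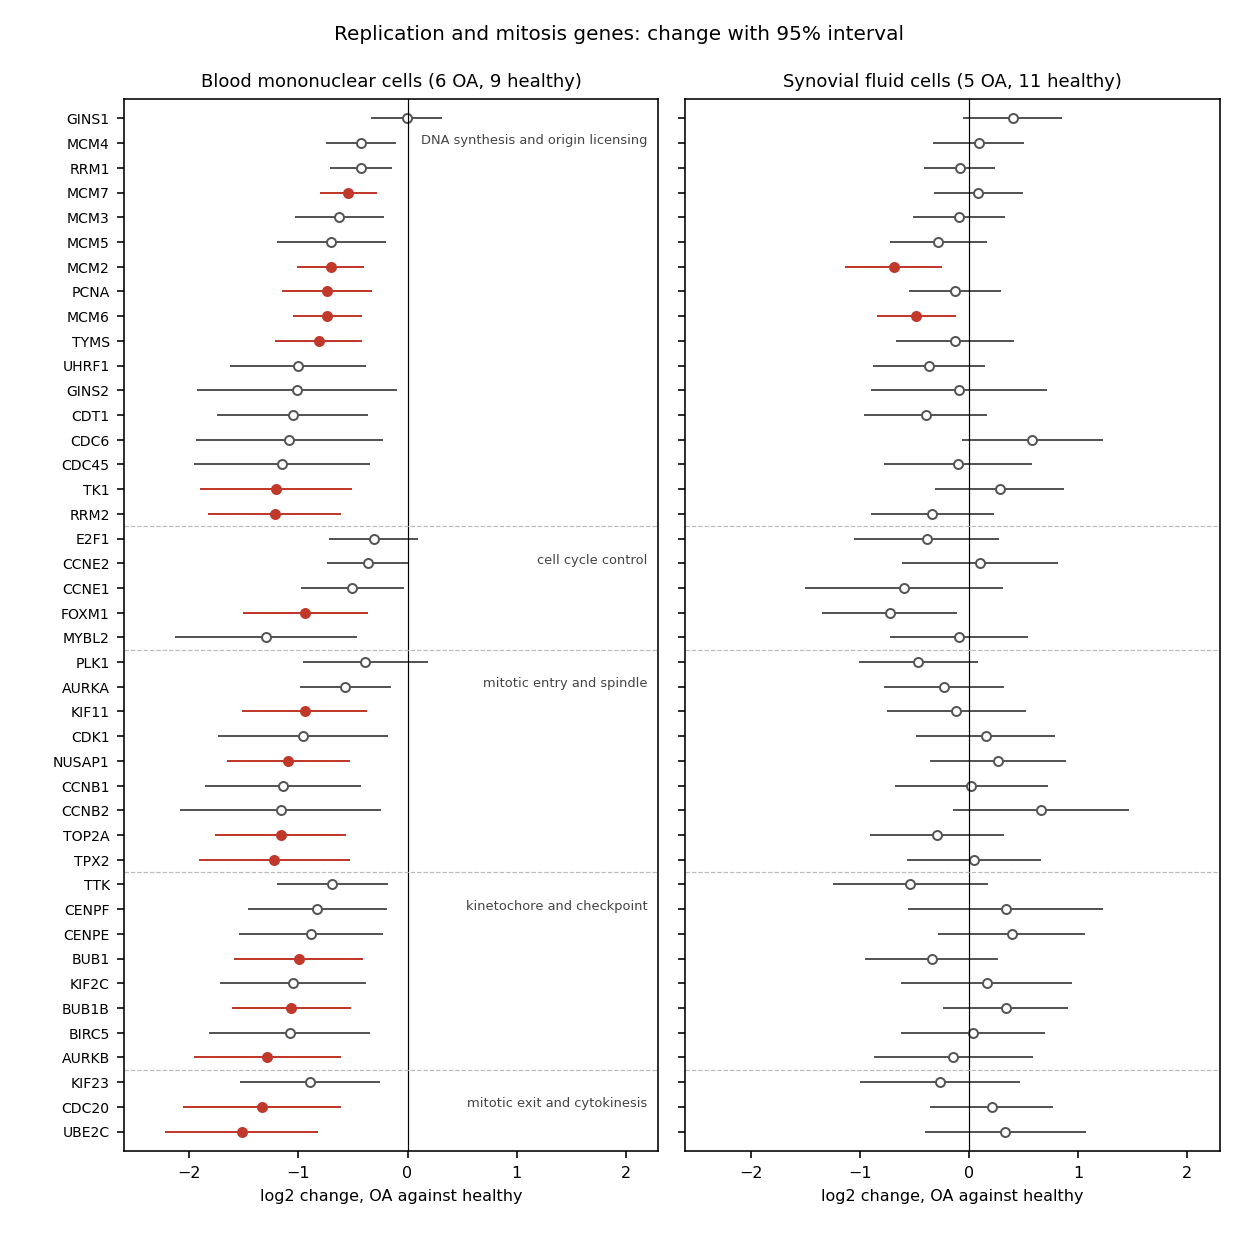
Log2 change, OA against healthy, of the 42 members in blood (left) and synovial fluid (right), ordered by role, with 95% confidence intervals (limma). Filled red points had an adjusted p below 0.05: 17 in blood and 2 in fluid, MCM2 and MCM6. With the scaling as deposited no point in blood lies above 0, and with equal totals 1 of the 42 did.

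Of the 17 members for DNA synthesis and origin licensing, 7 fell in OA blood (median -0.73). MCM2, a subunit of the MCM helicase (chromosome 16, 1610982 to 1636542, EquCab3.0), ranged in blood from 2219 to 3218 in OA (median 2614) and from 3158 to 6145 in healthy horses (median 4491). Only OA_2615 of the OA horses reached into the healthy range, which ended at ORC_202 and ORC_209. The mean was 2664 ± 454.9 (SD, n = 6) against 4363 ± 896.0 (SD, n = 9). On the log2 scale MCM2 thus fell by 0.70, with an SE of 0.14 and a limma adjusted p of 0.0195. MCM6 (chromosome 18, 19736234 to 19767446) lay between 2625 and 4648 in OA (median 3153) and between 4286 and 7814 in healthy horses (median 5256). Again OA_2615 alone overlapped the healthy horses, and MCM6 fell by 0.73 (SE 0.15, adjusted p = 0.0191). MCM7 (chromosome 13, 8114062 to 8121615) ranged from 2866 to 4489 in OA (median 4115) and from 4439 to 7007 in healthy horses (median 5548). Its highest OA horse, OA_1038, lay just above the lowest healthy horse, ORC_202, and the change was -0.54 (SE 0.12, adjusted p = 0.0235). The other 3 subunits were not called in blood, with changes of -0.63 for MCM3, -0.70 for MCM5 and -0.43 for MCM4 (adjusted p = 0.0606, 0.0795 and 0.0874).

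Among the factors that load or start the helicase in blood, none passed the threshold. CDC6 and CDT1, which load MCM rings on origins, changed by -1.08 and -1.05, and CDC45, which travels with the active helicase, by -1.15 (adjusted p = 0.11, 0.0642 and 0.0776). The GINS pair differed: GINS2 changed by -1.01 (95% interval -1.92 to -0.11), with as few as 10 reads in 1 blood library, whereas GINS1 changed by -0.01 (95% interval -0.32 to 0.30). GINS1 lay between 145.1 and 221.2 in OA blood and between 154.3 and 231.9 in healthy blood, so the 2 groups covered nearly the same range. PCNA, the sliding clamp of DNA polymerase (chromosome 22, 18406488 to 18412680), fell from 2141 ± 617.3 to 1272 ± 316.4, by 0.73 on the log2 scale (SE 0.19, adjusted p = 0.038). Its OA values ran from 941.6 to 1765 (median 1215) and its healthy values from 1290 to 3233 (median 1908), and 4 of 6 OA horses lay below all healthy horses. UHRF1, which keeps DNA methylation through replication, changed by -1.01 without passing the threshold (adjusted p = 0.054).

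The 3 called nucleotide enzymes were TYMS, RRM2 and TK1. TYMS, thymidylate synthase (chromosome 8, 44214874 to 44225452), was at 891.6 to 1659 in OA blood (median 1118) and at 1592 to 3170 in healthy blood (median 1801). OA_1038 and OA_2615 lay within the healthy range and the other OA horses below it, with a change of -0.82 (SE 0.18, adjusted p = 0.0255). RRM2, the regulated subunit of ribonucleotide reductase (chromosome 15, 84621080 to 84637969), was at 482.2 to 1362 in OA (median 929.7) and at 1097 to 3986 in healthy horses (median 1927), a change of -1.22 (SE 0.28, adjusted p = 0.0283). RRM1, the enzyme's large and less variable subunit, changed by -0.43 (adjusted p = 0.0613). TK1, the thymidine kinase of the salvage route (chromosome 11, 4338733 to 4350528), was at 271.1 to 962.1 in OA (median 374.7) and at 556.4 to 2148 in healthy horses (median 915.6). OA_2615 was the only OA horse above any healthy horse for TK1, which fell by 1.21 (SE 0.32, adjusted p = 0.042).

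Of 5 regulators of the cycle, 1 was called in blood. FOXM1, a transcription factor that switches on mitotic genes, ranged from 90.9 to 215.9 in OA (median 139.7) and from 142.7 to 520.8 in healthy horses (median 244.9), with a change of -0.94 (SE 0.27, adjusted p = 0.0496). MYBL2, a transcription factor of the same programme, was at 372.0 to 1129 in OA (median 687.1) and at 536.5 to 3773 in healthy horses (median 1705). Both groups of MYBL2 spread widely and its change of -1.30 missed the threshold (SE 0.39, adjusted p = 0.0606). E2F1, which activates replication genes at the start of S phase, lay between 206.6 and 292.9 in OA (median 273.2) and between 204.6 and 542.3 in healthy horses (median 318.5), so the OA range fell inside the healthy one (-0.31, adjusted p = 0.31). The E cyclins, which drive entry into S phase, changed by -0.51 (CCNE1) and -0.36 (CCNE2), neither of them called. CCNE1 was below all 9 healthy horses in 5 OA horses, and at 1203 in OA_1038 it was above them all.

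Of 9 members for mitotic entry and the spindle, 4 fell in blood: TPX2, TOP2A, NUSAP1 and KIF11 (median of the 9, -1.09). TOP2A, the topoisomerase that untangles chromosomes, ranged from 411.9 to 1190 in OA (median 870.1) and from 781.0 to 2903 in healthy horses (median 1889), a change of -1.16 (SE 0.28, adjusted p = 0.0313). TPX2, which activates Aurora A on the spindle, ranged from 195.8 to 694.8 in OA (median 386.6) and from 343.6 to 1635 in healthy horses (median 958.5; -1.22, adjusted p = 0.0408). For TPX2, 2 of the 6 OA horses lay below all healthy horses. NUSAP1, a microtubule-bundling protein, ranged from 128.8 to 370.4 in OA (median 205.8) and from 227.9 to 796.8 in healthy horses (median 473.1; -1.09, adjusted p = 0.0317). KIF11, the motor that pushes spindle poles apart, ranged from 253.4 to 765.4 in OA (median 481.2) and from 450.6 to 1477 in healthy horses (median 929.7; -0.94, adjusted p = 0.0476). OA_9350 was the lowest OA horse for these 4 genes and OA_2615 the highest.

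The kinases CDK1, AURKA and PLK1 and the B cyclins missed the threshold in blood. CDK1, the kinase that triggers mitosis, ranged from 64.4 to 195.0 in OA (median 168.2) and from 78.0 to 553.8 in healthy horses (median 269.0), a change of -0.96 (adjusted p = 0.117). Its lowest healthy horse, ORC_202, lay inside the OA range. Its partners CCNB1 and CCNB2 changed by -1.14 and -1.16 (adjusted p = 0.0557 and 0.111). AURKA, the spindle pole kinase, ranged from 193.2 to 321.9 in OA (median 230.9) and from 216.7 to 567.5 in healthy horses (median 321.6; -0.57, adjusted p = 0.0834). PLK1, a kinase of mitotic entry, changed by -0.39 (95% interval -0.95 to 0.18).

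Of 8 members that act at the kinetochore or in the checkpoint that waits for its attachment, AURKB, BUB1B and BUB1 fell in blood. AURKB, the kinase that corrects wrong attachments (chromosome 11, 51426259 to 51430181), was at 67.0 to 243.5 in OA (median 175.3) and at 187.1 to 667.3 in healthy horses (median 348.3). Of the OA horses, OA_2615 alone was above any healthy horse, and the change was -1.28 (SE 0.31, adjusted p = 0.0319). BUB1B, a checkpoint protein that holds back CDC20, was at 117.8 to 260.5 in OA (median 192.5) and at 190.3 to 631.7 in healthy horses (median 406.0; -1.06, adjusted p = 0.0313). BUB1, a checkpoint kinase, was at 150.0 to 389.1 in OA (median 276.2) and at 219.4 to 835.8 in healthy horses (median 564.4; -0.999, adjusted p = 0.0453). The other 5, BIRC5, KIF2C, CENPE, CENPF and TTK, changed by -0.69 to -1.08 without being called.

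The 2 largest changes in blood were in genes of mitotic exit. UBE2C, the ubiquitin-conjugating enzyme of the anaphase-promoting complex (chromosome 22, 35693348 to 35695785), ranged from 69.9 to 221.4 in OA (median 132.1) and from 165.8 to 786.5 in healthy horses (median 339.1). ORC_209 was the lowest healthy horse and lay inside the OA range, and the next, ORC_202 at 247.1, lay above it. The mean was 138.6 ± 55.5 (SD, n = 6) against 415.7 ± 209.6 (SD, n = 9), 2.87-fold lower on the fitted scale (log2 change -1.52, SE 0.33, adjusted p = 0.0221). CDC20, the activator of that complex (chromosome 2, 14927877 to 14931854), ranged from 145.8 to 393.4 in OA (median 261.5) and from 278.3 to 1445 in healthy horses (median 627.0), with a change of -1.33 (SE 0.34, adjusted p = 0.0349). Its OA horses OA_1038, OA_2615 and OA_9570 overlapped the healthy range. KIF23, a motor of the dividing cell's midzone, changed by -0.89 and was not called (adjusted p = 0.0838).

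**Figure D2:**
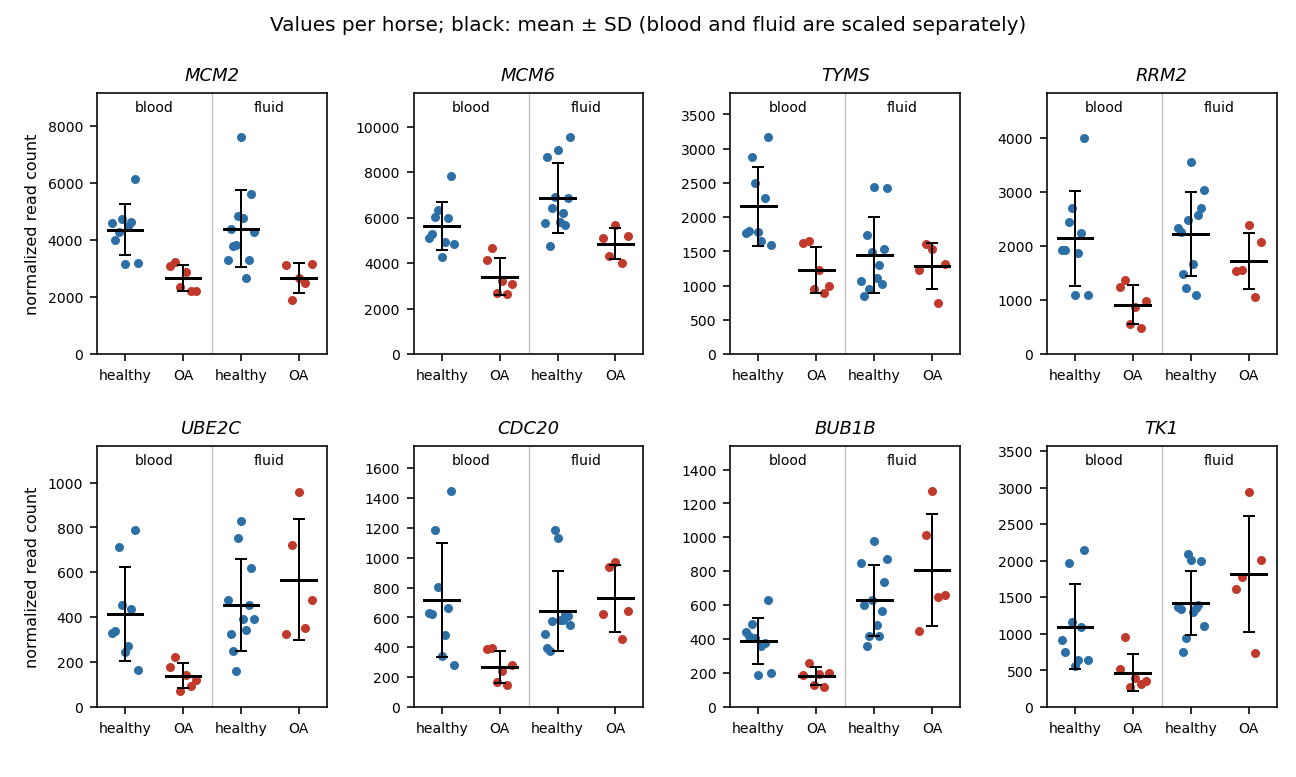
Normalized read count of 4 DNA synthesis genes (upper row) and of 3 mitosis genes and TK1 (lower row), 1 point per horse, with the mean and SD in black and blood left of each grey line. Blood and fluid are scaled separately, so heights compare only within a tissue. In blood the OA mean lies below the healthy mean for all 8 genes, which were all called there, and in fluid MCM2 and MCM6 were called.

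The blood libraries formed a gradient that most members shared. OA_9350 was the lowest OA library for 29 members and OA_3850 for 12, while OA_2615 was the highest for 31. Among healthy horses ORC_208 was the highest for 36 members, and the lowest was ORC_202 for 26 and ORC_209 for 14. The calls rested on few horses. Without OA_3850, OA_9350 or OA_9570, 0 members were called, beside 33, 35 and 31 genes in the whole table. Without ORC_207 the count was 4 and without ORC_200 or ORC_208 it was 6, whereas without ORC_202 it rose to 36. Sizes moved less: over the 15 omissions the median change of the members lay between -1.10 and -0.79. With both OA_3850 and OA_9350 left out, the median was -0.65, 23 members had an unadjusted p under 0.05 and 0 of 13049 genes were called. UBE2C, MCM2, MCM6 and MCM7 kept the call in 12 of the 15 omissions.

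**Figure D3:**
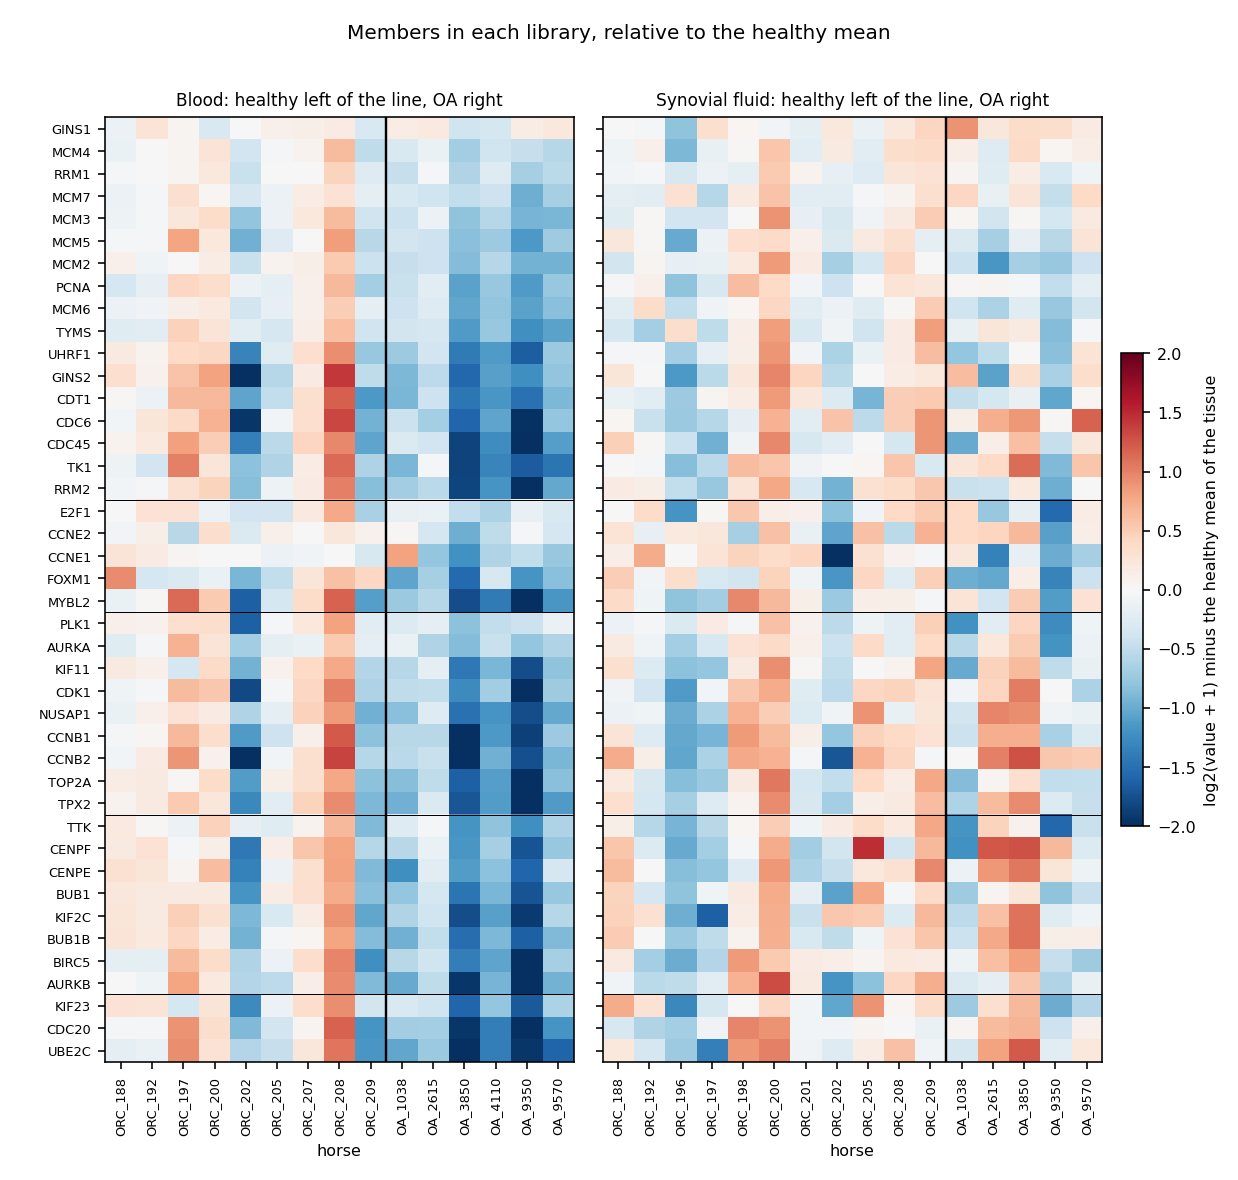
Each member (row, by role) in each library (column), as log2(value + 1) minus the mean of the healthy libraries of the same tissue. Blue is below and red above that mean, and the colour scale ends at 2 in either direction. In blood OA_3850 and OA_9350 are the bluest columns, ORC_208 is the reddest, and ORC_202 and ORC_209 are pale to dark blue among the healthy horses.

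**Figure D4:**
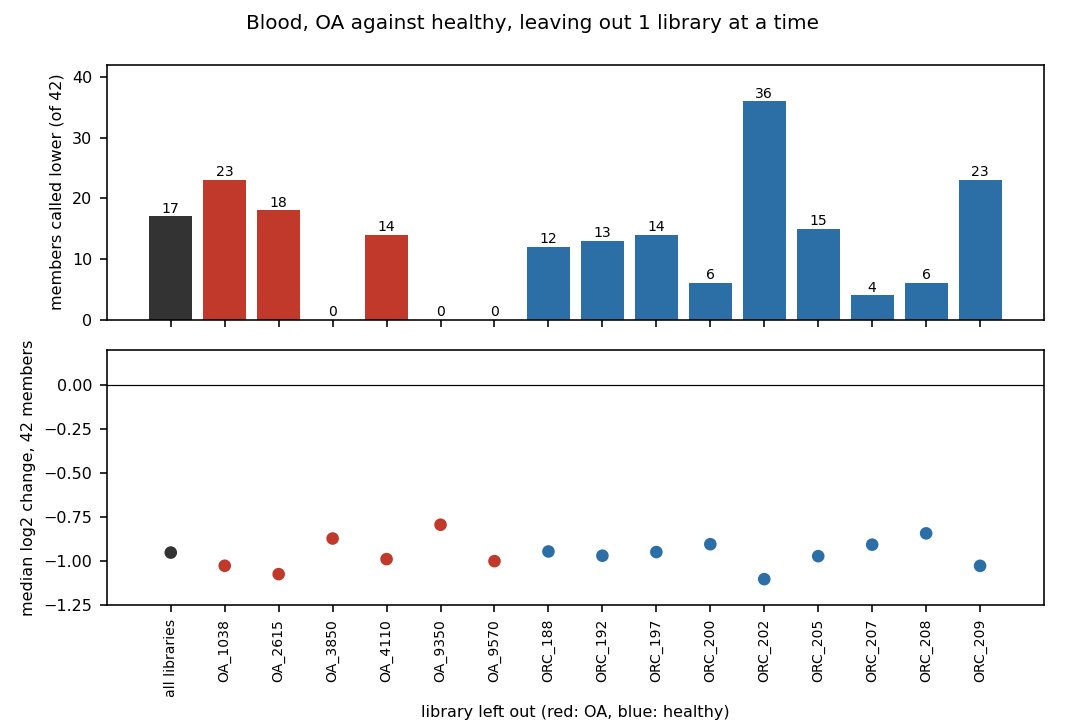
Members called lower in OA blood (upper panel, bars) and the median log2 change of the 42 members (lower panel, points) with all libraries and with each of the 15 left out. The count runs from 0 to 36, and the median stays between -1.10 and -0.79.

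Markers of several cell types also differed between OA and healthy blood, some higher and some lower. Of 5 monocyte markers measured, 2 were higher in OA blood (median change 1.17), and their summed level was 86816 to 217788 in OA and 40482 to 110602 in healthy horses. All 4 neutrophil markers had changes above 0 (median 1.31), with 1 called and sums of 31726 to 69637 against 8066 to 38815. Of 9 plasma cell markers 3 were lower (median -0.73), and their sum reached 65906 in ORC_208 but ran from 13697 to 19599 in OA horses. Of 7 B cell markers 1 was lower (median -0.81, sums 13135 to 56335 against 24316 to 81332). Of 10 T cell markers 0 were called (median -0.23, sums 49605 to 105750 against 60352 to 96679). Of 6 macrophage markers tested 1 was higher (median 1.23). Of 8 cytotoxic and natural killer cell markers (median 0.14) and 2 erythroid markers tested (median 2.49), 0 were called. Among OA bloods, OA_3850 had the lowest T cell, cytotoxic and plasma cell sums and the highest neutrophil sum. It also had the highest macrophage sum, 33016, against at most 6562 in healthy blood. OA_9570 had the highest monocyte sum and the lowest B cell sum of the OA bloods. No marker of these lists was at 0 in all libraries. With the mean of the monocyte markers as a covariate 0 of 13072 genes and 0 members were called (smallest adjusted p of a member, 0.816), and the members' median change was -0.71. On the log2 scale that mean was 12.33 to 13.61 in OA and 10.88 to 12.34 in healthy blood. It nearly followed disease, so this fit cannot tell cell composition and disease apart. Depth also moved with disease, at 31.7 to 34.8 M reads in OA and 23.9 to 32.2 M in healthy blood. The parts of cell composition and of depth in the fall were not tested, and a sequencing batch that follows disease cannot be told apart from it.

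In fluid, 2 of the 42 members were called, both lower: MCM2 and MCM6. Over all 13885 genes tested in fluid, 13.6% were called lower and 14.4% higher, so the members' share of 4.76% lay under the 28.1% called in either direction. The median change of the members was -0.09, beside 0.08 for all genes, and 24 of the 42 were below 0, against 46.2% of all genes. That number was 32 of 42 with libraries scaled to equal totals, which moved the median of all genes to -0.12 and that of the members to -0.29; relative to all genes the members' median was -0.17 with both scalings. The groups overlapped for all 42 members in fluid too, while 1.99% of all genes had every OA horse below every healthy one and 1.57% the reverse.

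MCM2 in OA fluid was at 3134 in OA_1038, 1883 in OA_2615, 2673 in OA_3850, 2496 in OA_9350 and 3163 in OA_9570, and in healthy fluid it ran from 2661 to 7621 (median 4278). OA_2615 and OA_9350 lay below every healthy horse and the other 3 in the lower part of the healthy range. The mean was 2670 ± 526.3 (SD, n = 5) against 4404 ± 1353 (SD, n = 11). MCM2 in fluid thus fell by 0.69, with an SE of 0.21 and a limma adjusted p of 0.0198. MCM6 was at 5104 in OA_1038, 4321 in OA_2615, 5679 in OA_3850, 3985 in OA_9350 and 5189 in OA_9570, and at 4765 to 9553 in healthy fluid (median 6409). All 5 OA horses were below that median, and the change was -0.48 (SE 0.17, adjusted p = 0.0419). Without OA_2615 neither gene was called (smallest adjusted p of a member, 0.0712), and MCM6 kept its call in 6 of 16 omissions against 15 of 16 for MCM2. Without OA_1038, OA_9350, ORC_192, ORC_197, ORC_198, ORC_200, ORC_208 or ORC_209 MCM2 alone was called, and without ORC_202 the count was 4, with CCNE1 and FOXM1 added. Without OA_3850, FOXM1 was called in place of MCM6. The other subunits of the same ring changed by 0.09 (MCM4 and MCM7), -0.09 (MCM3) and -0.28 (MCM5) in fluid, none of them called.

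The remaining DNA synthesis genes did not pass the threshold in fluid. CDC6 and GINS1, those of smallest p among them, had changes above 0. The next by p, UHRF1 and CDT1, changed by -0.36 and -0.40 (adjusted p = 0.258 and 0.267). Of all 17 members for DNA synthesis and origin licensing, 12 had changes below 0 in fluid (median -0.10). CDC6 was at 262.4, 402.1, 440.5, 245.7 and 547.9 in the OA fluids of OA_1038, OA_2615, OA_3850, OA_9350 and OA_9570, and at 144.3 to 445.7 in healthy fluid (median 214.3). Every OA horse was above the healthy median, with a change of 0.58 (95% interval -0.06 to 1.22, adjusted p = 0.155). GINS1, whose groups covered nearly the same range in blood, was at 577.8 in OA_1038 and 348.3 to 400.3 in the other OA fluids, and at 176.5 to 419.0 in healthy fluid (median 312.1; change 0.40, adjusted p = 0.157). PCNA was at 2619, 2689, 2519, 1830 and 2247 in the same order of OA horses and at 1468 to 3958 in healthy fluid (median 2603). These OA values sat inside the healthy range (-0.13, 95% interval -0.54 to 0.28). TYMS was at 1233, 1604, 1541, 748.3 and 1321 in OA and at 848.5 to 2439 in healthy fluid (median 1297; -0.13, 95% interval -0.66 to 0.41). RRM2 was at 1529, 1545, 2384, 1060 and 2062 in OA and at 1087 to 3549 in healthy fluid (median 2330; -0.33, 95% interval -0.89 to 0.22). For both genes OA_9350 was the lowest of all 16 fluids and the other 4 OA horses lay within the healthy range.

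The regulators were low in OA_9350 as well. FOXM1 was at 204.5 in OA_1038, 199.8 in OA_2615, 446.9 in OA_3850, 159.3 in OA_9350 and 302.3 in OA_9570, and at 181.1 to 572.3 in healthy fluid (median 391.8). In 4 of 5 OA horses it was below that median, and its change of -0.72 missed the threshold (SE 0.29, adjusted p = 0.0678). E2F1 was at 1396, 619.4, 930.8, 358.1 and 1170 in the same order of horses and at 462.6 to 1534 in healthy fluid (median 1129). MYBL2 was at 2417, 1537, 2851, 918.8 and 2440, and at 1149 to 3897 in healthy fluid (median 2171). OA_9350 was below all healthy fluids for E2F1, MYBL2 and FOXM1, and the changes of E2F1 and MYBL2 were -0.39 and -0.09 (adjusted p = 0.359 and 0.842). CCNE1 was at 95.3 in ORC_202 and at 647.9 to 1100 in the other healthy fluids, and at 256.3 to 770.0 in OA fluid (-0.59, adjusted p = 0.306).

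Mitosis genes in OA fluid split by horse, not by group. UBE2C was at 325.2 in OA_1038, 722.4 in OA_2615, 959.4 in OA_3850, 350.7 in OA_9350 and 475.5 in OA_9570, and at 158.5 to 828.5 in healthy fluid (median 393.7; change 0.33, 95% interval -0.40 to 1.06). CDC20 was at 625.9, 941.1, 973.2, 453.2 and 645.8 in the same order, and at 376.3 to 1189 in healthy fluid (median 580.1; 0.21, 95% interval -0.35 to 0.77). OA_2615 and OA_3850 stood above the other 3 OA horses for both genes. KIF11 was at 623.4, 1726, 1942, 887.9 and 1131 (healthy 714.8 to 2393, median 1282; -0.12), CDK1 at 431.2, 605.6, 907.5, 452.0 and 286.7 (healthy 203.9 to 752.5, median 429.6; 0.16) and AURKA at 349.9, 591.8, 728.5, 223.5 and 472.6 (healthy 319.9 to 676.2, median 551.7; -0.23). OA_3850 was the highest OA horse for these 5 genes and, for UBE2C, CDK1 and AURKA, above every healthy fluid. The lowest OA horse was OA_1038, OA_9350 or OA_9570, depending on the gene. None of the 20 members for mitotic entry, kinetochore and exit was called in fluid. With weights that count outlying libraries less, CCNB2, BUB1B, CENPF and NUSAP1 were called higher by limma, in a fit that called 47.8% of all genes.

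Cell type markers in fluid had larger median changes than these genes. All 10 T cell markers were lower in OA fluid (median -2.09; summed level 8041 to 34644 in OA, 35088 to 131795 in healthy horses), as were 8 of 8 cytotoxic and natural killer cell markers (median -2.22). Of 13 synovial fibroblast markers 4 were higher (median 3.41, sums 1569 to 680439 against 859.9 to 135659). Of 5 monocyte and 7 macrophage markers 1 each was higher, beside 14.4% of all fluid genes called higher. Of the 5 monocyte markers, 2 had changes below 0. No marker of these lists was at 0 in all fluid libraries. OA_2615 had the lowest T cell sum and the highest fibroblast sum, and OA_1038 the highest T cell sum of the OA fluids. With the mean of the T cell markers as a covariate 0 of 13885 genes were called, and the change of MCM2 became 0.16. On the log2 scale that mean was 9.54 to 11.64 in OA and 11.62 to 13.60 in healthy fluid. It nearly followed disease, so this fit cannot tell cell composition and disease apart. The part of cell composition in the fluid values was not tested.

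The OA effect in fluid minus that in blood was tested directly, over all 31 libraries, with fluid and blood of a horse not paired. It was higher for 6 of the 42 members (UBE2C, BUB1B, NUSAP1, CDC20, TK1 and MCM7) and lower for 0, while 10.3% of the 12733 genes tested were called higher and 11.9% lower. In either direction the members' share was 14.3%, under the 22.3% of all genes. For UBE2C the effects were 0.33 in fluid and -1.52 in blood, a difference of 1.85 (SE 0.55, limma adjusted p = 0.0166). For BUB1B they were 0.34 and -1.06 (difference 1.40, adjusted p = 0.0188), for NUSAP1 0.27 and -1.09 (1.36, adjusted p = 0.0297), and for CDC20 0.21 and -1.33 (1.54, adjusted p = 0.0357). TK1 had 0.28 and -1.21 (1.49, adjusted p = 0.0385) and MCM7 0.09 and -0.54 (0.63, adjusted p = 0.0444). In all 6 the fall was in blood and the fluid change was not called. MCM2, with changes of -0.69 in fluid and -0.70 in blood, had a difference of 0.01 (95% interval -0.52 to 0.54), and MCM6 one of 0.25 (95% interval -0.24 to 0.75). Without the fluid of OA_3850 the count was 0, without the fluid of OA_2615 it was 1, and without the fluid of ORC_192 or the blood of OA_9350 or ORC_197 it was 3. It was 10 without the blood of OA_2615 or ORC_209 and 11 without that of ORC_202, and scaling to equal totals left UBE2C and BUB1B. A paired fit over the 13 horses with both samples called 7 members higher, including all 6, and 24.2% of all genes.

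Replication and mitosis genes were then set against each other, using 10 replication genes (MCM2 to MCM7, GINS1, GINS2, TYMS, RRM2) and 7 mitosis genes (UBE2C, CDC20, KIF11, KIF23, KIF2C, AURKA, AURKB). In blood 5 of the 10 replication genes (median change -0.70) and 4 of the 7 mitosis genes (median -1.05) fell. Averaged per library on the log2 scale, the replication genes were at 10.05 ± 0.28 in OA (SD, n = 6) and 10.73 ± 0.39 in healthy blood (SD, n = 9), and the mitosis genes at 7.56 ± 0.54 and 8.64 ± 0.56. The mitosis mean minus the replication mean was thus -2.49 ± 0.29 in OA and -2.09 ± 0.18 in healthy blood, a gap of -0.41. OA_9350 (-2.89) and OA_3850 (-2.83) lay below every healthy horse, whose range was -2.43 (ORC_209) to -1.84 (ORC_208). The other 4 OA horses, at -2.39 to -2.26, lay inside it. ORC_202 and ORC_209, the healthy bloods with the lowest means of both sets, lay within the OA range of each mean. In the difference of the means only ORC_209 did, and ORC_202 (-2.261) lay just above the highest OA horse, OA_9570 (-2.264). Every OA horse was thus below every healthy horse except ORC_209 in that difference.

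**Figure D5:**
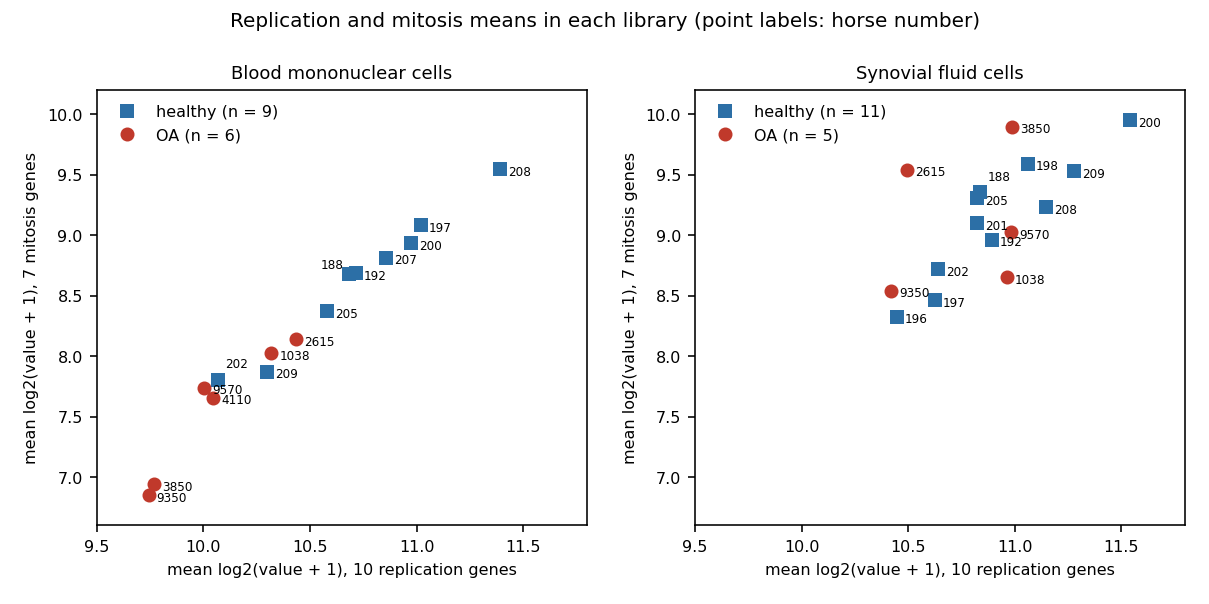
Mean log2(value + 1) of 10 replication genes (horizontal) and 7 mitosis genes (vertical) in each library, with the horse number beside each point. In blood the OA horses lie at the lower left with ORC_202 and ORC_209 among them, and in fluid OA and healthy horses are intermixed.

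In fluid the replication mean was 10.77 ± 0.29 in OA (SD, n = 5) and 10.92 ± 0.32 in healthy horses (SD, n = 11), and the mitosis mean 9.13 ± 0.58 and 9.14 ± 0.49. Neither set separated the groups. The mitosis mean minus the replication mean was -2.31 in OA_1038, -0.95 in OA_2615, -1.09 in OA_3850, -1.88 in OA_9350 and -1.96 in OA_9570, and -2.16 to -1.47 in healthy fluid. The OA horses lay on both sides of the healthy range, OA_1038 below it and OA_2615 and OA_3850 above it, and the gap between group means was 0.14. It was -0.027 without OA_2615, 0.0076 without OA_3850, 0.22 without OA_9570 and 0.31 without OA_1038. OA_3850 had the highest mitosis mean of the OA fluids (9.90), while its blood, at 6.94, had the second lowest of all 15.

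The members varied together between horses of a group. With group means removed, the median correlation of member pairs was 0.82 in blood (861 pairs over 15 libraries) and 0.53 in fluid (16 libraries), beside 0.00 and 0.01 for a member with another tested gene. In blood, pairs of a replication with a mitosis gene had a median of 0.80, replication pairs 0.80 and mitosis pairs 0.79. In fluid, pairs across the sets had a median of 0.45, replication pairs 0.55 and mitosis pairs 0.67. These describe libraries that also share depth and cell composition. CCNE1, CCNE2 and GINS1 followed the other members least in blood (median correlation 0.24, 0.25 and 0.31), and GINS1 and CCNE1 in fluid (0.15 and 0.26).

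Fluid and blood of the same horse can be set side by side as RPM (reads per 1 M reads of the library), with no test, since the tables were scaled separately. In the 5 OA horses, 27 of the 42 members had a higher RPM in fluid than in blood in every horse. This held in all 8 healthy horses, a larger number of horses to meet, for 5 members: MCM4, CDK1, GINS1, KIF23 and E2F1. Counted over most of the horses, fluid was higher for 38 members in OA and for 35 in healthy horses. These counts, and those per horse that follow, were not made over all genes. They are therefore not shown to be particular to the members. The number of members higher in fluid was 42 in OA_3850, where the median log2 ratio of fluid to blood was 2.24, and 31 to 41 in the other OA horses. It was 11 in ORC_208, 18 in ORC_197 and 30 to 42 in the other healthy horses. For UBE2C the median log2 ratio was 1.58 in OA and 0.50 in healthy horses, and for CDC20 1.10 and -0.07. MCM2 and TYMS were higher in fluid in 6 and 4 of the 13 horses.

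Further genes of the same pathways were also lower in OA blood. They were measured in the same libraries, and their lists were chosen with earlier results known, so they add no separate evidence. Of 39 other replication genes tested, 9 fell in blood and 0 rose (median -0.45), where 2.2% of all genes were called lower. They included CHAF1A, a chromatin assembly factor (from 840.0 to 428.4, -0.91), RFC4, a clamp loader subunit (-0.59), the replication initiator MCM10 (-1.28) and the polymerase subunit POLD2 (-0.66). Of 53 other mitosis genes, 20 fell and 0 rose (median -0.89), among them the condensin subunit SMC4 (from 2926 to 1791, -0.71), CDC25B, a phosphatase that activates CDK1 (-1.03), SGO2, a protector of chromosome cohesion (-1.06), and PRC1, a bundler of the spindle midzone (-0.97). In fluid 8 of the 39 other replication genes fell and 1 rose (median -0.26). With both directions together, this share was not above the 28.1% of all genes called. The share that fell was above the 13.6% of all genes called lower. The lower ones of smallest p were RFC5 (-0.98), DBF4, the partner of the kinase CDC7 (-0.94), and the origin recognition subunits ORC2 (-0.83) and ORC6 (-0.83). Of the 53 other mitosis genes 5 fell and 2 rose in fluid (median -0.07), a smaller share than that of all genes, with the centromere protein CENPU higher (0.97) and TACC3 (-0.75), KIF20B (-0.79) and the condensin subunit NCAPD2 (-0.63) lower.

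Genes that hold back or start the cycle are given beside the share called over all genes, 28.1% in fluid and 5.4% in blood. Of 23 genes of cell cycle brakes and quiescence, 6 were called in fluid, a share near that of all genes. Of these, 4 fell in OA, including the CDK inhibitor CDKN1B (from 3833 to 1390, -1.46), PKMYT1, a kinase that restrains CDK1 (-1.69), and the retinoblastoma relative RBL1 (-1.17). Another 2 rose, E2F5 (2.77) and the CDK inhibitor CDKN1A (1.55). In blood 1 of 22 was called, TOB1, an antiproliferative gene, which rose from 1360 to 2215 (0.72). Of 14 G1 cyclins, kinases and their targets, CDK4 (0.87) and CCND1 (1.12) rose in fluid and CCND3 (-0.88), E2F2 (-1.08) and CDK7 (-0.44) fell. In blood CDK2 fell (-0.71) and CDK6 rose (0.86).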

How the data were processed

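The authors deposited 1 table for fluid and another for blood, in which each gene's signal is its read count over a median-ratio factor of the library. Per the submitters' processing notes, Partek, cutadapt, STAR 2.7.3, HTSeq and DESeq were used, on EquCab3.0; settings were not given in the sources used here. Symbols, identifiers and coordinates are those of the blood table. Low values are whole multiples of what 1 read is worth, so reads were recovered (99.87% to 99.98% of values whole within 0.1 of a read), with 23.9 to 36.3 M reads per library. The labels name separate horses, and no pair of libraries in a group was a near copy (smallest chi-square per gene 37.6 in blood and 112.9 in fluid).

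Each tissue had its own limma fit (version 3.58.1, R 4.3.3, with trend and robust variance) on log2(value + 1), for genes whose mean was at least 10, tested two-sided with Benjamini-Hochberg adjustment over all genes at 0.05. Such fold changes understate the change of low genes. The difference between tissues used 4 group means with weights per tissue. Titles give fluid and blood of a horse the same number. Deviations from group means correlated within 13 of 13 horses (0.12 to 0.39, median 0.25). A fit on within-horse differences over these 13 horses was therefore also made. Alternatives were other pseudocounts, filters and scalings, edgeR 4.0.16 and DESeq2 1.42.0 on the recovered reads, weights per library, marker covariates and the omission of each library. edgeR called 3986 genes in fluid and 807 in blood. The fits were also run on simulated counts with known changes, drawn independently for each gene, whereas the members varied together. The outcome is not given here, and no result rests on it. The members and gene lists were chosen with earlier results of these data known. Members called in a tissue, the 5 of smallest p and 13 fixed members are given in full, and up to 4 other pathway genes per list and tissue, by smallest p.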

Additional observations from a re-analysis of the deposited data

Results flagged for a closer look

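Over 126 pairs of a member and a group of libraries, 3 had 1 library far from the rest; chance alone gives about 1 in 20. The 11 healthy fluids were too many for this check and were not examined. GINS1, a subunit of the helicase activator, was at 577.8 in the fluid of OA_1038, above the other OA fluids. CCNE1, cyclin E1, was at 1203 in the blood of the same horse, also the highest of its group. PLK1, a mitotic kinase, was at 192.9 in the blood of ORC_202, the lowest healthy value.

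The OA effect differed between fluid and blood, by the test of the difference itself, for 6 of the 42 members. This share of 14.3% was under the 22.3% of all genes called in that test. The difference was 1.85 for UBE2C, 1.54 for CDC20, 1.49 for TK1, 1.40 for BUB1B, 1.36 for NUSAP1 and 0.63 for MCM7, on the log2 scale, each with a fall in blood.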

How the results depend on the processing

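Of 42 members, the 17 lower in blood became 37 with DESeq2, 40 with weights per library (settings that called 12.9% and 17.7% of all genes, against 5.4%), 11 without trend and robust variance, and 0 with the monocyte covariate or without OA_3850 and OA_9350 together; omission of 1 library gave 0 to 36. edgeR gave 21 and the other settings 12 to 17. The 2 lower in fluid became 0 with the T cell covariate and 4 without OA_9570 and ORC_202 (0 to 4 over single omissions), and the 0 higher became 4 with weights per library (47.8% of all genes called). For the difference, 6 became 2 with equal totals and 27 with weights per library (37.3% of all genes called; 0 to 11 over omissions), and the replicate block, the paired fit within horses, gave 7, including all 6. The blood gap between mitosis and replication means was -0.65 with medians over genes. In fluid, where none of these changes but that of MCM2 was called, signs turned with the T cell covariate for UBE2C (-0.29), MCM2 (0.16), E2F1 (0.38) and MYBL2 (0.15), with equal totals for CDK1 (-0.046), and with weights for AURKA (0.092), KIF11 (0.16) and MYBL2 (0.072). Single omissions gave TYMS -0.22 to 0.058, CDK1 -0.060 to 0.35, AURKA -0.42 to 0.0093, KIF11 -0.30 to 0.11 and MYBL2 -0.24 to 0.17. The causes were not tested. Depth was at least 23.9 M reads in every library.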
